A study of Mus musculus with 4 samples.

Results

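The 10 genes described here are those most often used to mark lipid-associated macrophages, the macrophages that gather around lipid-laden adipocytes. They are Spp1, Gpnmb, Trem2, Cd9, Lgals3, Fabp5, Lipa, Ctsb, Ctsd and Itgax, taken by symbol with earlier results of these data known. Each gene matched 1 of the 53715 gene rows. They were read in single-nucleus RNA sequencing of inguinal white adipose tissue, the fat pad of the groin, which in mice also holds mammary epithelium and lymph nodes. The 4 libraries came from C57BL/6N mice aged 6 months, 2 labelled PTRF knockout (labelled KO) and 2 labelled wild type (labelled WT), numbered 1 and 2 within each label. No label says whether a library pooled mice, and p-values measure the spread between these libraries, which may be technical. PTRF, now called cavin-1 and encoded by Cavin1, coats caveolae, small pits of the plasma membrane. The labels name no allele, Cre driver or sex. Cavin1 goes against the labels. Summed over all nuclei it had 730 and 1759 UMIs (unique molecular identifiers, 1 per captured transcript) in the libraries labelled KO 1 and 2, against 40 and 9 in those labelled WT 1 and 2. Its log2 difference was 5.08 with an SE of 0.54 (adjusted p = 1.06e-16, edgeR quasi-likelihood test, Benjamini-Hochberg over all genes), and the names of the deposited files also give each library the opposite genotype. Every difference below is therefore between labels, labelled KO minus labelled WT, and no direction is given with respect to the presence of cavin-1.

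Lipid-associated macrophages are known from obese adipose tissue, atherosclerotic plaques and injured brain, where they take up dead cells and lipid and break them down in lysosomes. TREM2, a lipid-sensing receptor that signals through the adaptor encoded by Tyrobp, is known to be needed for the program in adipose tissue. Osteopontin (Spp1), GPNMB and galectin-3 (Lgals3) are secreted or membrane glycoproteins and lectins of the program. CD9, a tetraspanin, and CD11c, the integrin subunit encoded by Itgax, are its usual sorting markers. FABP5 carries fatty acids in the cytosol. Lysosomal acid lipase (Lipa) and the proteases cathepsin B (Ctsb) and cathepsin D (Ctsd) work in the lysosome. Several of these genes also serve other cells: Spp1 is a milk protein gene of the mammary epithelium, and Cd9 is common on epithelia and endothelium.

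The sequence upstream of 4 of the genes is shown because Spp1, Gpnmb and Lipa lay higher in both libraries labelled KO than in both labelled WT in macrophage nuclei, while Itgax, a myeloid gene of the same program, did not. Each is the 250 bases before a RefSeq transcript start on GRCm38.p6, 5′ to 3′ on the strand of the gene, and capitals mark a match to 1 of 5 short motifs. The windows are chr5:104434861-104435110 on the plus strand for Spp1, chr6:49036268-49036517 on the plus strand for Gpnmb, chr19:34527475-34527724 on the minus strand for Lipa and chr7:128129300-128129549 on the plus strand for Itgax.
Spp1: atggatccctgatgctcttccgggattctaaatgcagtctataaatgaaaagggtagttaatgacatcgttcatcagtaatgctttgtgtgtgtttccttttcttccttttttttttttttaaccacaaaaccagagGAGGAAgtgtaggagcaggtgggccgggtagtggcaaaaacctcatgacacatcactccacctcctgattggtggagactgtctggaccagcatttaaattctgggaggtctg
Gpnmb: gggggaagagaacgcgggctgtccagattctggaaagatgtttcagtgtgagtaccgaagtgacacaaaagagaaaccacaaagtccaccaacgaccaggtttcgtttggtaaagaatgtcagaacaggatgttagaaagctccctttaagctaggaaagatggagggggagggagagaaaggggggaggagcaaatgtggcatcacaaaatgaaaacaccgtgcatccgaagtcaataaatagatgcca
Lipa: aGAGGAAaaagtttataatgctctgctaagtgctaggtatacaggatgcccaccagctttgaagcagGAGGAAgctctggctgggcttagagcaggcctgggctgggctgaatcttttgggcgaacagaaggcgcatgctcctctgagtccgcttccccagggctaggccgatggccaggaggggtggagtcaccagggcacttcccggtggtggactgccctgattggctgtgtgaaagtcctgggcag
Itgax: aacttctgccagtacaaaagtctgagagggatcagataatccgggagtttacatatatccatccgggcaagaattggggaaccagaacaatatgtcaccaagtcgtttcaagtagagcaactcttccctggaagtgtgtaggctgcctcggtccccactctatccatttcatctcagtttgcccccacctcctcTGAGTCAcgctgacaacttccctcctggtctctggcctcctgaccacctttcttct
The motifs searched on both strands were CACGTG, bound by the TFEB and MITF family of lysosomal gene regulators, TCATGTG, a second MITF form, GAGGAA, the core bound by the myeloid factor PU.1, TGANTCA, the AP-1 site, and TTCNNNGAA, the site bound by STAT5. In the 32851 windows of the same length over the genome, CACGTG occurred in 6.02%, TCATGTG in 3.25%, GAGGAA in 23.3%, TGANTCA in 6.75% and TTCNNNGAA in 7.02%. In Spp1, GAGGAA starts 113 bases before the transcript start, in Lipa it starts 249 and 183 bases before it, and in Itgax TGANTCA starts 56 bases before it. The Gpnmb window held none of the 5. Of the 8 genes with an entry, Trem2 also matched GAGGAA and TGANTCA, and Ctsd matched CACGTG at 2 places. These matches are letters in a window and show no binding.

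In GRCm38 coordinates with GENCODE M21, Spp1 lies at chr5:104435118-104441050, Gpnmb at chr6:49036546-49070929, Trem2 at chr17:48346401-48354147, Lgals3 at chr14:47367751-47386160, Fabp5 at chr3:10012548-10016607, Ctsb at chr14:63122462-63145923 and Itgax at chr7:128129547-128150657, all on the plus strand. Cd9 (chr6:125460266-125494791), Lipa (chr19:34492318-34527474) and Ctsd (chr7:142375911-142388038) lie on the minus strand. All 10 are protein-coding. Ctsd is the least certain count, as 33.2% of the 31-base words of its transcripts also occur in Gm49369, which overlaps it on the same strand. The share was 14.3% for Spp1 (with the overlapping Gm42793), 10.8% for Cd9, 10.7% for Itgax (with Itgad, a neighbouring integrin), 9.21% for Fabp5 and under 1% for the others.

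There were 12454 and 16141 deposited barcodes under the labels KO 1 and 2, against 15928 and 6827 under WT 1 and 2, with 14039227 and 35134206 against 22585610 and 8855578 UMIs. After filtering, 50064 nuclei remained, with a median of 844.5 and 1401 UMIs in the libraries labelled KO and 1022 and 933.5 in those labelled WT. Of 51350 barcodes, 536 occurred in more than 1 library. Clustering without the 10 genes gave 22 clusters, and 11 classes or clusters had at least 50 nuclei in every library. Classes are named for the type their markers resemble, and clusters 0 and 3 stay unnamed. Macrophage nuclei, clusters 11 and 14, were named from a list of 12 markers that includes Adgre1, Mrc1, Csf1r and Mertk. Of these markers, 9 were among the 100 leading genes of cluster 11, 4 of them among its first 10. In cluster 14, 5 were among the 100 and 0 among the first 10. Every marker of the list had UMIs in these nuclei, as it also had in vascular endothelial and adipocyte nuclei. The library labelled KO 2 was the deepest, with a median of 2209.5 UMIs per macrophage nucleus, against 854 in the library labelled KO 1 and 1125 and 943.5 in those labelled WT.

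The macrophage class had the highest mean level of 6 of the 10 genes, and for Ctsb alone among them its range over the 4 libraries lay wholly above the next class. Levels are in CPM, the UMIs of a gene scaled to the total of the class in that library, as mean ± SD over all 4 libraries, and are compared within a gene only. Ctsb, the cysteine protease of the lysosome, averaged 442 ± 177 CPM in macrophages and next at 96.2 ± 38.5 in vascular endothelial nuclei, and macrophages were highest in 4 of 4 libraries. Itgax averaged 42.1 ± 8.84 CPM in macrophages, 20.7 ± 21.2 in dendritic cells, the other cell type CD11c is used to define, and at most 10.1 ± 3.44 elsewhere. Macrophages and dendritic cells overlapped in Itgax, since the library labelled KO 1 had 51.9 CPM in dendritic cells and 34.6 in macrophages. Lgals3 averaged 68.0 ± 19.0 CPM in macrophages, 29.9 ± 33.8 in vascular and 28.9 ± 10.9 in luminal epithelial nuclei.

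Gpnmb averaged 161 ± 153 CPM in macrophages and 72.8 ± 23.9 in fibroblasts or progenitors, whose ranges overlapped. Fibroblasts or progenitors held 30.6% of all Gpnmb UMIs, and macrophages 25.3%. Trem2 averaged 8.32 ± 5.74 CPM in macrophages and 7.03 ± 6.27 in T or NK cells, which did not differ beyond their spread, on 178 UMIs in all. Ctsd had 113 UMIs in all nuclei and averaged 3.42 ± 2.31 CPM in macrophages and 2.64 ± 0.85 in cluster 0. With so few UMIs, neither the receptor nor the protease could be ordered by class at this depth. Fabp5, at 342 UMIs, was also low in every class: it averaged 12.6 ± 8.65 CPM in vascular endothelial nuclei, 9.73 ± 8.04 in dendritic cells, 8.83 ± 2.23 in adipocytes and 7.27 ± 5.38 in macrophages, and adipocytes held 45.0% of its UMIs.

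**Figure D1:**
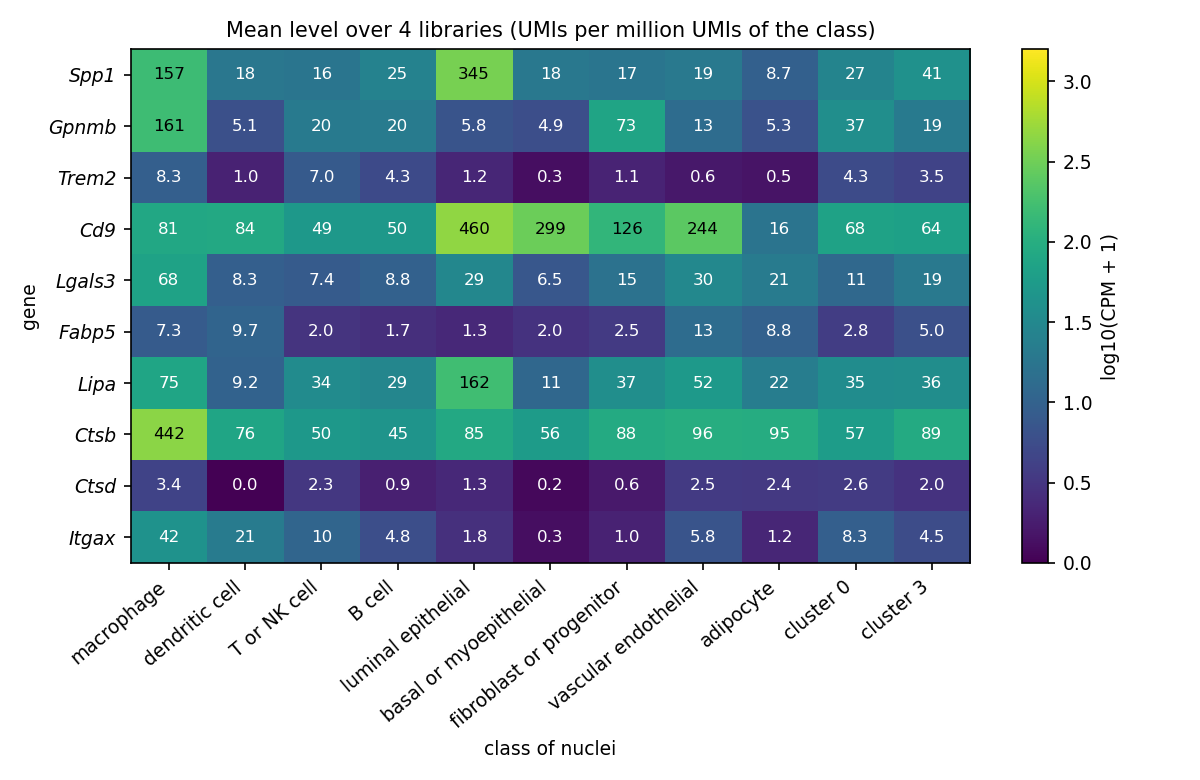
Mean level of each gene (rows) in each of the 11 classes (columns) over 4 libraries, on a log10(CPM + 1) colour scale. Ctsb and Itgax are highest in the macrophage column, at 442 and 42.1 CPM, while Spp1, Cd9 and Lipa are highest in the luminal epithelial column.

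The other 3 genes were highest in luminal epithelium of the mammary gland, a class that pooled clusters 6, 8 and 9. Spp1 and Lipa were among the 100 leading genes of cluster 6. Cd9 was among those of cluster 9, which was led by Slc7a2, Prlr and Pgr and not by caseins. Cd9 averaged 460 ± 91.5 CPM in luminal nuclei, above the whole range of the next class, basal or myoepithelial nuclei at 299 ± 104, and 81.5 ± 23.4 in macrophages. Luminal nuclei held 59.0% of Cd9 UMIs and 62.9% of Lipa UMIs, and Lipa averaged 162 ± 122 CPM there and 74.8 ± 22.1 in macrophages. Spp1 was the most concentrated. Cluster 6, a luminal cluster led by the caseins Csn3, Csn1s1 and Csn2, held 77.0% of its 8821 UMIs, all luminal nuclei 84.3% and macrophages 4.18%. The Spp1 level in cluster 6 was 991 and 262 CPM in the libraries labelled KO 1 and 2, against 1716 and 0 CPM in those labelled WT 1 and 2, where the last rests on 35 nuclei. Cluster 6 itself had 728 and 375 nuclei in the libraries labelled KO, against 1998 and 35 in those labelled WT.

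Over all nuclei, 0 of the 10 genes passed the test at an adjusted p of 0.05 (edgeR), where 0.103% of the 28075 genes tested did, 29 in number. The same fit gave 332 genes with an unadjusted p under 0.05 and DESeq2 called 14 genes, none of them among the 10. In sums over all nuclei, fewer cells of a type and less RNA per cell cannot be told apart. Spp1 had 1559 and 692 UMIs in the libraries labelled KO, against 6565 and 5 in those labelled WT, or 115 and 19.9 against 297 and 0.58 CPM. The libraries labelled WT thus held both the highest and the lowest Spp1 level, as they did for cluster 6, and the log2 difference of -1.42 had an SE of 3.29. Gpnmb had 353 and 1002 UMIs in the libraries labelled KO and 402 and 174 in those labelled WT, or 26.1 and 28.8 against 18.2 and 20.2 CPM. It was the only gene of the 10 whose groups did not overlap, where 14.9% of all genes tested did not, with a log2 difference of 0.54 (SE 0.45, adjusted p = 1, edgeR). The other 8 had log2 differences from -0.51 (SE 0.45) for Lipa to 0.76 (SE 0.47) for Ctsb.

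In macrophage nuclei, 4 of the 7 genes with enough UMIs to be tested, Spp1, Gpnmb, Ctsb and Lipa, lay above both libraries labelled WT in both libraries labelled KO, and none of the 7 passed the test. Cd9, Lgals3 and Itgax overlapped between the labels. Of all 8655 genes tested, 25.2% did not overlap in either direction, 1 gene, or 0.0116%, passed an adjusted p of 0.05, and 138 had an unadjusted p under 0.05. DESeq2 also called 1 gene. The gene called by edgeR was the predicted gene Gm47283, named after its value was seen. The median log2 difference of all genes was -0.01. The 3 remaining genes, Trem2, Fabp5 and Ctsd, had too few UMIs for the test. Macrophages were 2.08% and 5.04% of nuclei in the libraries labelled KO and 3.45% and 3.69% in those labelled WT, with no shift in the mean (-0.012 percentage points, exact permutation p = 1, two-sided, where 2 against 2 cannot go below 0.333).

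Among the secreted and membrane glycoproteins, Spp1 had 110 and 221 UMIs in macrophages of the libraries labelled KO, against 38 and 0 in those labelled WT. That is 476 and 104 CPM against 48.6 and 0 CPM, and the log2 difference was 3.14 (SE 0.92, unadjusted p = 0.00744, adjusted p = 0.9999, edgeR). The library labelled KO 1 stood far above the rest and the library labelled WT 2 held no Spp1 at all in 246 macrophage nuclei. Gpnmb, a lysosomal and cell-surface glycoprotein, had 87 and 324 UMIs in the libraries labelled KO, against 72 and 6 in those labelled WT, or 376 and 152 against 92.1 and 22.9 CPM. Its log2 difference was 1.98 (SE 0.53, unadjusted p = 0.00194, adjusted p = 0.9999, edgeR). With 1 library left out, the log2 difference ranged from 1.79 to 10.92 for Spp1 and from 1.27 to 3.399 for Gpnmb. In these fits the lone library of a label is assumed to vary like the other label. The 10.92 rests on a library with 0 Spp1 UMIs and is no bound. Without the library labelled KO 2, the label KO rests on KO 1 alone, where 98 of the 110 Spp1 UMIs came from 1 nucleus. Lgals3, the gene of galectin-3, a lectin that binds damaged membranes, had 60.6 and 90.0 CPM in the libraries labelled KO and 75.5 and 45.8 CPM in those labelled WT, with a log2 difference of 0.29 (SE 0.46).

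Of the surface markers, Cd9 had 99.5 and 78.3 CPM in macrophages of the libraries labelled KO and 98.5 and 49.7 CPM in those labelled WT (log2 0.15, SE 0.45). Itgax had 34.6 and 49.7 CPM against 49.9 and 34.4 CPM, the smallest difference of the 7 genes (log2 -0.01, SE 0.53). Trem2 had 1 and 10 UMIs in the libraries labelled KO and 13 and 2 UMIs in those labelled WT, or 4.33 and 4.69 against 16.6 and 7.64 CPM. In CPM the receptor gene was thus lower in both libraries labelled KO, opposite in direction to Spp1 and Gpnmb, on 26 UMIs and with no test. By share of macrophage nuclei with a Trem2 UMI the labels overlapped, at 0.40% and 1.13% against 1.87% and 0.81% with all UMIs counted.

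Among the lysosomal genes, Ctsb had 139 and 1257 UMIs in the libraries labelled KO, against 240 and 71 in those labelled WT, or 601 and 589 against 307 and 271 CPM. The 2 libraries of each label lay close together, and the log2 difference was 1.01 (SE 0.35, unadjusted p = 0.012, adjusted p = 0.9999, edgeR). Lipa had 86.5 and 98.9 CPM in the libraries labelled KO and 64.0 and 49.7 CPM in those labelled WT (log2 0.67, SE 0.44, unadjusted p = 0.149). Ctsd had 1 and 9 UMIs in the libraries labelled KO and 4 and 0 in those labelled WT. Fabp5, the cytosolic fatty acid carrier, had 3 and 18 UMIs in the libraries labelled KO and 6 and 0 in those labelled WT.

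Beside these values, the summed macrophage markers came to 6449 and 10704 CPM in macrophage nuclei of the libraries labelled KO and 9422 and 8151 CPM in those labelled WT. The 7 monocyte genes summed to 164 and 532 CPM in the libraries labelled KO, against 1234 and 435 CPM in those labelled WT, and 12 adipocyte markers to 705 and 1136 against 751 and 386 CPM. The sums of 3 other cell types were higher in both libraries labelled KO, as Spp1, Gpnmb, Ctsb and Lipa were: fibroblast or progenitor markers came to 294 and 375 CPM in the libraries labelled KO and 253 and 260 CPM in those labelled WT, B cell markers to 692 and 917 against 490 and 615 CPM, and neutrophil markers to 199 and 97.0 against 52.5 and 61.1 CPM. The lymphatic sum was lower in both, at 130 and 150 against 157 and 168 CPM. The caseins, genes of cluster 6, summed to 64.9 and 59.5 CPM in macrophages of the libraries labelled KO, against 132 and 3.82 CPM in those labelled WT. The part of free RNA and of mixed nuclei in these results was not tested.

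**Figure D2:**
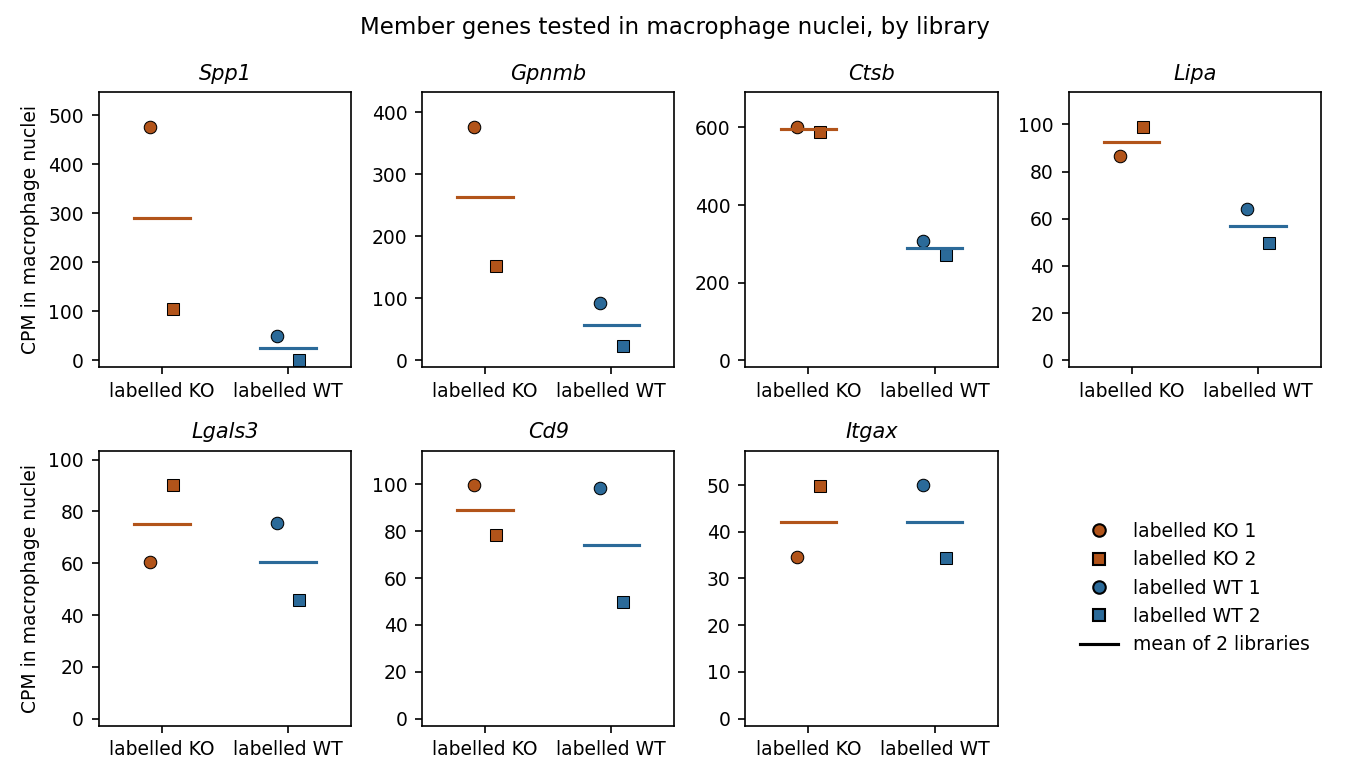
Level (CPM) of the 7 tested genes in macrophage nuclei, 1 point per library, with the mean of each label as a bar. Spp1, Gpnmb, Lipa and Ctsb have both points of the libraries labelled KO above both of the libraries labelled WT, and Cd9, Lgals3 and Itgax overlap.

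The macrophage Spp1 counts sat in very few nuclei. In the library labelled KO 1, 98 of 110 UMIs came from 1 nucleus, and in that labelled KO 2, 95 of 221 came from 1 nucleus, while the most in 1 nucleus of the library labelled WT 1 was 6 of 38. Without the top nucleus of each library, Spp1 measured 52.3 and 59.2 CPM in the libraries labelled KO, against 41.0 and 0 CPM in those labelled WT. T or NK cells, read here for the level that free RNA can give although activated T cells can express Spp1, had 12.1 and 2.25 CPM in the libraries labelled KO and 47.6 and 3.27 CPM in those labelled WT. B cells had 29.9 and 5.05 against 64.6 and 0 CPM, and cluster 3 had 51.9 and 13.5 against 95.9 and 1.35 CPM. The macrophage level in the library labelled WT 1, 48.6 CPM, was that of its T or NK cells and under that of its B cells. In the library labelled KO 1, the level without the top nucleus was above T or NK cells and B cells and close to cluster 3. Of the Spp1 UMIs in macrophages, 101 of 110 and 203 of 221 lay in nuclei that also held a Gpnmb UMI in the libraries labelled KO, against 3 of 38 in that labelled WT 1. These are counts of UMIs and not of nuclei, and the nuclei with 98 and 95 Spp1 UMIs were among those with Gpnmb. Spp1 was seen in only 9 and 13 macrophage nuclei of the libraries labelled KO and in 29 of that labelled WT 1.

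Gpnmb was spread over more nuclei. It was seen in 35 and 62 macrophage nuclei of the libraries labelled KO, against 33 and 3 in those labelled WT, and the most from 1 nucleus was 14 of 87 and 38 of 324 UMIs against 8 of 72 and 3 of 6. Without the top nucleus of each library it measured 317 and 135 CPM in the libraries labelled KO and 82.4 and 11.5 CPM in those labelled WT. The order of the labels was the same as with all nuclei.

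**Figure D3:**
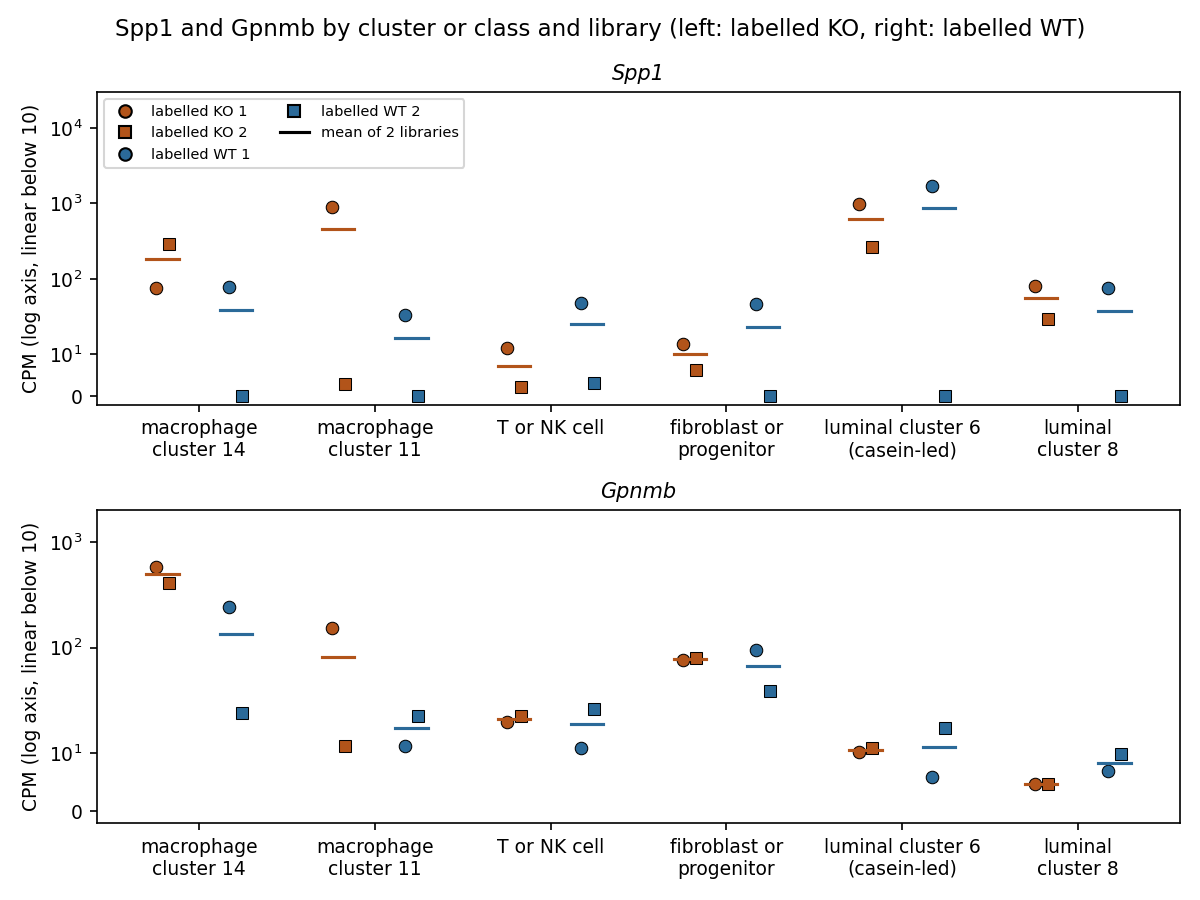
Spp1 and Gpnmb level (CPM, on a log axis that is linear below 10) by cluster or class, 1 point per library, labelled KO left of labelled WT, with bars for the mean of each label. Spp1 is highest in the casein-led luminal cluster 6, up to 1716 CPM, and Gpnmb in macrophage cluster 14, up to 586 CPM.

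Of the 2 macrophage clusters, cluster 14 carried most of the Gpnmb. Cluster 11, of 1183 nuclei, was led by F13a1, Retnla, Mrc1 and Cd163, and its leading genes also included the monocyte gene Ccr2. F13a1, Mrc1 and Cd163, and also Timd4 of cluster 14, were on a list of perivascular or resident macrophage genes. That list summed to 5388 and 6894 CPM in cluster 11 of the libraries labelled KO and 6153 and 5188 CPM in those labelled WT. In cluster 14 it came to 854 and 1130 against 1017 and 1495 CPM. The 7 monocyte genes summed to 152 and 663 against 1800 and 575 CPM in cluster 11. In cluster 14 they came to 176 and 289 against 163 and 142 CPM. The 12 macrophage markers were lower in cluster 14 than in cluster 11 in every library. They summed to 10490 and 14045 against 12421 and 10612 CPM in cluster 11. In cluster 14 the sums were 2670 and 4548 against 3751 and 2966 CPM. Cluster 14, of 647 nuclei, was led by Timd4, a receptor for dying cells, Slc8a1, Ms4a7 and Trpm2, and Gpnmb and Itgax were among its 100 leading genes although neither entered the clustering. Gpnmb measured 586 and 411 CPM in cluster 14 of the libraries labelled KO, against 244 and 23.7 CPM in those labelled WT. In cluster 11 it measured 152 and 11.6 CPM against 11.7 and 22.5 CPM. The order of the labels was thus seen in cluster 14, and the labels overlapped in cluster 11. Spp1 overlapped between the labels in both clusters, with 904 and 2.89 CPM in cluster 11 of the libraries labelled KO against 33.3 and 0 CPM in those labelled WT, and 75.3 and 289 against 77.7 and 0 CPM in cluster 14. The 904 CPM came from 3 of 130 nuclei, among them the nucleus with the most Spp1 UMIs of the library labelled KO 1. Itgax had 58.6 and 104 CPM in cluster 14 of the libraries labelled KO and 88.8 and 83.0 CPM in those labelled WT, and at most 29.3 CPM in cluster 11 of any library. Ctsb did not follow this split: it had 618 and 561 CPM in cluster 11 of the libraries labelled KO, against 241 and 253 CPM in those labelled WT, and 586 and 641 against 433 and 308 CPM in cluster 14. Cluster 14 was 47.8% and 29.5% of macrophage nuclei in the libraries labelled KO and 38.5% and 34.96% in those labelled WT, so its share overlapped between the labels. Lgals3 differed in direction between the clusters, with 83.7 and 156 CPM in cluster 14 of the libraries labelled KO against 55.5 and 35.6 CPM in those labelled WT, and 35.8 and 54.2 against 86.1 and 50.7 CPM in cluster 11.

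To compare nuclei of unequal depth, each was thinned to 500 UMIs, which left out none. Ctsb was then seen in 21.7% of macrophage nuclei of the library labelled KO 1 (exact 95% interval 16.7% to 27.3%) and 20.4% of that labelled KO 2 (17.6% to 23.3%), against 15.9% (12.9% to 19.3%) and 12.2% (8.38% to 16.9%) in those labelled WT 1 and 2. In T or NK cells, taken as the level free RNA can give, the share was 1.82% and 3.56% against 2.19% and 1.79%. Both labels were thus far above background for Ctsb, and the shares unthinned were 30.1% and 49.5% against 26.7% and 21.5%. Gpnmb was seen in 8.43% (5.30% to 12.6%) and 3.88% (2.65% to 5.46%) of macrophage nuclei of the libraries labelled KO, against 2.24% (1.16% to 3.89%) and 1.22% (0.252% to 3.52%) in those labelled WT. T or NK cells had 0.819% and 1.36% against 0.528% and 1.52%, so that the library labelled WT 2 was at background. Unthinned, Gpnmb was seen in 14.1% and 7.75% against 6.17% and 1.22%. These intervals cover counting error within a library only.

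Spp1 was seen in 2.41% and 1.0% of thinned macrophage nuclei of the libraries labelled KO and 2.62% and 0% of those labelled WT, the last being 0 of 246 nuclei, which allows a share of up to 1.22%. T or NK cells had 0.728% and 0% against 2.39% and 0.138%, and B cells 1.26% and 0.244% against 2.88% and 0%. The B cell share of the library labelled KO 1 lay inside its macrophage interval of 0.889% to 5.17%. By share of nuclei Spp1 therefore overlapped between the labels, unlike its CPM, and no order is read from the share. Lgals3 was seen in 2.01% and 3.88% against 2.43% and 2.03%, Lipa in 2.81% and 3.25% against 2.99% and 1.63%, and Itgax in 1.20% and 1.62% against 2.06% and 1.63%, all overlapping or close to it. Cd9 was seen in 2.81% and 3.50% against 5.42% and 2.03%, with 1.73% and 3.01% against 2.60% and 1.38% in T or NK cells, a level near background in both libraries labelled KO and in that labelled WT 2. The mean share was higher under the label KO for 7 of the 10 genes thinned, and for 8 of them unthinned. The 7 included Spp1, Fabp5 and Ctsd. Unthinned shares also rise with depth, which was greatest in the library labelled KO 2. The same count was not taken over all genes, so neither number is read as a result. Trem2, Fabp5 and Ctsd were each seen in under 1% of nuclei in every library after thinning.

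**Figure D4:**
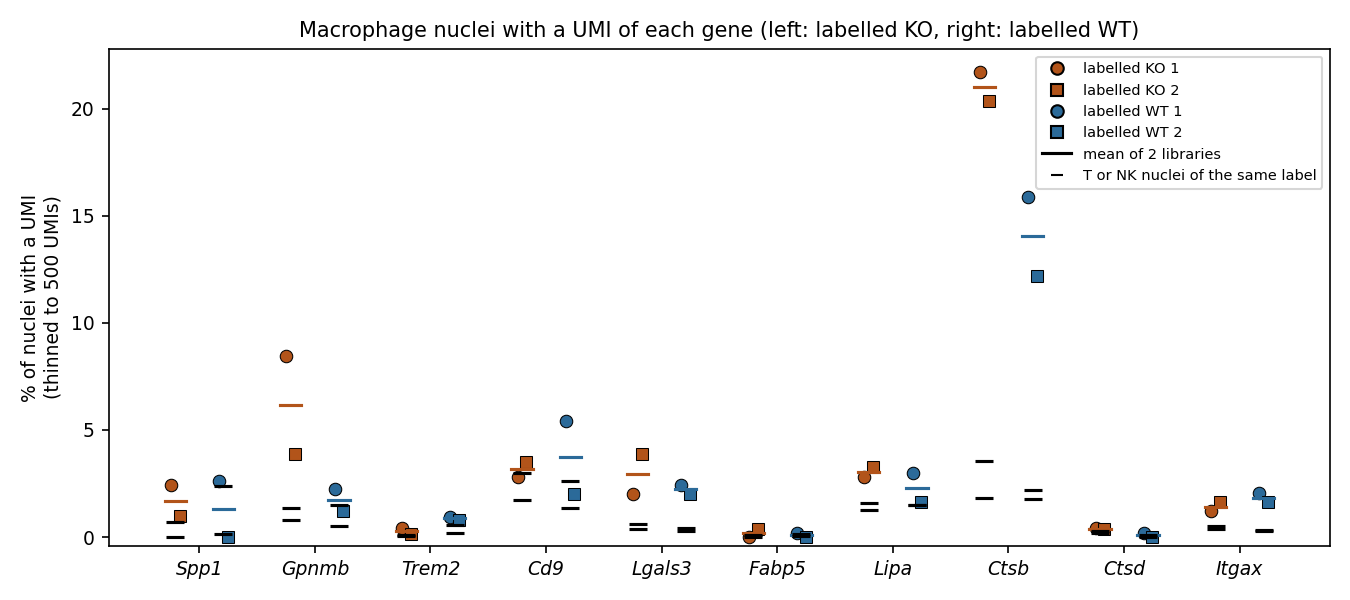
Percentage of macrophage nuclei with a UMI of each gene after thinning to 500 UMIs, 1 point per library, labelled KO left of labelled WT, with coloured bars for the mean of each label and black dashes for T or NK nuclei of each library. Ctsb stands at 21.7% and 20.4% in the libraries labelled KO and 15.9% and 12.2% in those labelled WT, with T or NK nuclei at 3.56% or less.

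Few macrophage nuclei held several of the genes at once. After thinning, 7.23% and 5.63% of macrophage nuclei of the libraries labelled KO held UMIs of 2 or more of the 10 genes, against 3.36% and 0% of those labelled WT, and no nucleus held more than 4. In cluster 14 the shares were 11.8% and 13.1% against 6.80% and 0%, and in cluster 11 they were 3.08% and 2.48% against 1.22% and 0%. Both libraries labelled KO were above both labelled WT in either cluster, with no test. Over all macrophage nuclei, Ctsb and Gpnmb were each also seen in a larger thinned share in both libraries labelled KO. The share expected from single genes was not computed, so this order is not read as co-expression. With all UMIs counted, the macrophage shares were 14.9% and 28.0% against 14.95% and 3.25%, which overlapped between the labels. With all UMIs counted, nuclei with Gpnmb also held the other genes more often in the 3 libraries that had more than 3 such nuclei: Itgax was seen in 8.57% and 24.2% of Gpnmb-positive nuclei of the libraries labelled KO and 12.1% of that labelled WT 1, against 2.34%, 6.23% and 3.78% of their Gpnmb-negative nuclei. The Gpnmb-positive nuclei were deeper, with medians of 1101, 3628.5 and 1375 UMIs in those 3 libraries, and the part of depth in this was not tested.

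In adipocyte nuclei 0 of 7 tested genes passed the test, where 0.520% of 15379 genes did (80 genes, and 811 with an unadjusted p under 0.05; DESeq2 called 93). Lgals3 had 13 and 127 UMIs in the libraries labelled KO, against 140 and 40 in those labelled WT, or 8.72 and 13.9 against 25.2 and 35.1 CPM. It was lower in both libraries labelled KO than in both labelled WT, with a log2 difference of -1.30 (SE 0.45, unadjusted p = 0.00649, adjusted p = 0.352, edgeR). Ctsb had 89.2 and 148 CPM in the libraries labelled KO, against 80.5 and 62.2 CPM in those labelled WT, above both, with a log2 difference of 0.75 (SE 0.35, unadjusted p = 0.0371, adjusted p = 0.858, edgeR). Those 2 genes were the only ones of the 7 whose groups did not overlap in adipocytes, where 29.0% of all genes tested did not. Fabp5, which some adipocytes are known to express, had 10.7 and 7.86 CPM against 10.6 and 6.14 CPM (log2 0.02, SE 0.56). Spp1 had 8.72 and 1.86 CPM against 23.2 and 0.877 CPM (log2 -1.75, SE 1.24), an order of libraries like that of its level in cluster 6. Summed over adipocyte nuclei, macrophage markers came to 317 and 358 CPM in the libraries labelled KO and 362 and 406 in those labelled WT. Fibroblast or progenitor sums were 574 and 623 against 1046 and 865 CPM, and plasma cell sums 119 and 163 against 819 and 234. Pericyte or smooth muscle sums were 158 and 135 against 161 and 171. Schwann cell sums were 352 and 366 against 404 and 417, and neutrophil sums 4.70 and 5.35 against 7.37 and 7.01. All were lower in both libraries labelled KO. Higher in both were adipocyte sums, at 12059 and 19825 against 11686 and 11422. So were T or NK cell (266 and 368 against 235 and 228) and luminal sums (1348 and 2306 against 1276 and 565). The part of these types in the Lgals3 values was not tested.

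Across the 9 other classes, 1 gene in 1 class passed the test: Cd9 fell in vascular endothelial nuclei. Cd9 encodes a tetraspanin of endothelial junctions. It had 5 and 65 UMIs in the libraries labelled KO, against 78 and 38 in those labelled WT, or 38.4 and 160 against 401 and 375 CPM. Both libraries labelled KO were below both labelled WT, and the log2 difference was -1.82 (SE 0.42, adjusted p = 0.0168, edgeR). In this class 1.06% of 3663 genes passed and 37.5% did not overlap, and DESeq2 gave Cd9 an adjusted p of 0.233. Without the library labelled KO 1 the difference was -1.35 (adjusted p = 0.183, edgeR), without that labelled WT 1 or WT 2 the adjusted p was 0.108 or 0.148, and without that labelled KO 2 the difference was -3.24 (adjusted p = 0.00016). The 10 vascular markers summed to 5425 and 8743 CPM in these nuclei in the libraries labelled KO and 7687 and 7518 CPM in those labelled WT. The 7 lymphatic markers summed to 146 and 470 against 545 and 622 CPM, and lymphatic endothelial nuclei, a separate cluster with 3 and 9 nuclei in the libraries labelled KO and 66 and 16 in those labelled WT, had 0 and 12 against 88 and 18 Cd9 UMIs. The lymphatic sum, like Cd9, was thus lower in both libraries labelled KO. The sums of 7 other cell types were higher in both: adipocyte markers came to 2801 and 3895 CPM in the libraries labelled KO and 2165 and 1492 CPM in those labelled WT, fibroblast or progenitor markers to 790 and 994 against 555 and 445 CPM, and B cell markers to 2548 and 3014 against 2036 and 2292 CPM. Dendritic cell markers came to 422 and 418 against 314 and 286 CPM, T or NK cell markers to 460 and 527 against 380 and 375 CPM, plasma cell markers to 176 and 217 against 113 and 59.3 CPM, and luminal markers to 445 and 487 against 411 and 217 CPM. Leaving out vascular nuclei with a UMI of any lymphatic marker gave a difference of -1.92 (adjusted p = 0.035, edgeR). This leaves in nuclei whose lymphatic RNA was not captured, and the part of mixed or free RNA in the Cd9 difference was not tested.

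**Figure D5:**
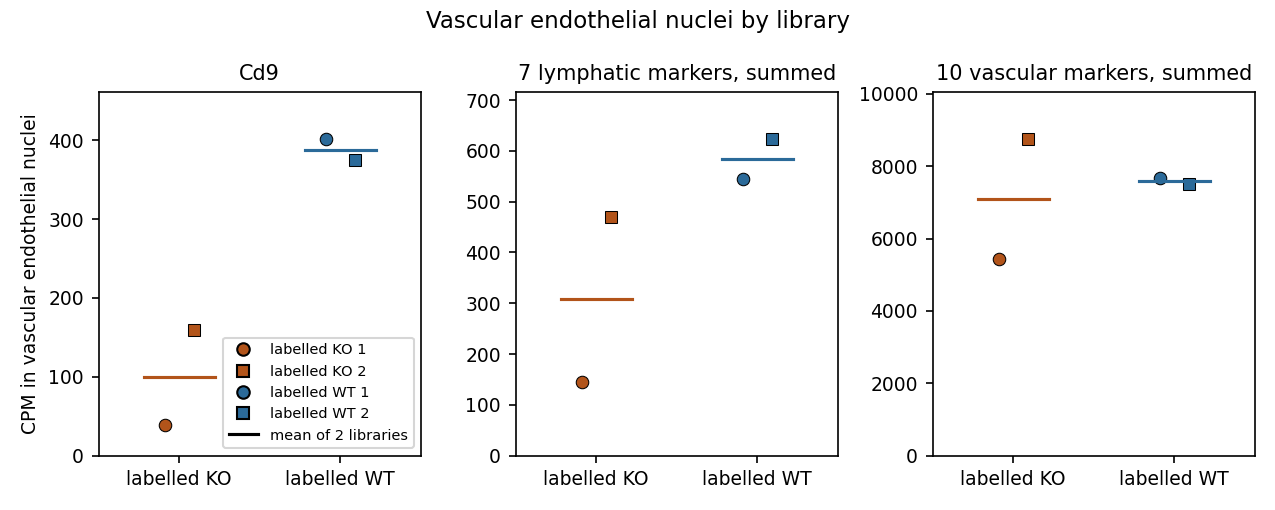
Level (CPM) of Cd9 and the summed level of vascular and of lymphatic endothelial markers in vascular endothelial nuclei, 1 point per library, with the mean of each label as a bar. Cd9 is at 38.4 and 160 CPM in the libraries labelled KO and at 401 and 375 CPM in those labelled WT.

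No other gene of the 10 passed the test in these classes. The shares of all genes that passed were 0.012% in luminal and 0.00933% in basal or myoepithelial nuclei, 0.0428% in B cells and 0.0555% in dendritic cells, and 28.0%, 27.2%, 21.2% and 36.9% of genes did not overlap. Ctsb was higher in both libraries labelled KO in cluster 0, at 61.3 and 82.4 CPM against 38.9 and 44.9 CPM in those labelled WT (log2 0.79, SE 0.27, adjusted p = 0.666, edgeR), and in cluster 3, at 90.6 and 128 against 78.5 and 59.5 CPM (log2 0.70, SE 0.26, adjusted p = 0.906). In cluster 0, 0.216% of genes passed and 33.1% did not overlap, and in cluster 3 the shares were 0.0453% and 33.6%. Together with macrophages and adipocytes, 4 of the 11 classes thus had Ctsb higher in both libraries labelled KO, without a call in any. Its log2 difference was above 0 in 9 of 11, and was -0.01 in dendritic cells and -0.08 in vascular endothelium. Spp1 in T or NK cells had 12.1 and 2.25 CPM in the libraries labelled KO, against 47.6 and 3.27 CPM in those labelled WT (log2 -2.31, SE 0.65, adjusted p = 0.570, edgeR), in a class where 0.0442% of genes passed and 19.9% did not overlap. The high value was that of the library labelled WT 1, which was also the library with the most Spp1 in cluster 6. In fibroblasts or progenitors, where 0.0481% of genes passed and 29.2% did not overlap, Gpnmb had 77.0 and 79.9 CPM against 95.4 and 39.0 CPM (log2 0.14, SE 0.38). Lgals3 there had 5.50 and 13.2 CPM against 24.0 and 17.2 CPM (log2 -1.04, SE 0.54, adjusted p = 0.9995, edgeR), lower in both libraries labelled KO as in adipocytes.

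Other genes of the program and its pathways were read from lists of known genes. Some genes, such as Apoe, Npc2 and Cd63, are on more than 1 list, so the counts of the lists are not independent. Of 24 further lipid-associated macrophage genes, 23 could be tested in macrophage nuclei; 19 had a log2 difference above 0, the median was 0.34, and 0 passed the test, against a median of -0.01 and 49.5% above 0 over all genes tested. The CPM values of list genes, in this paragraph and the others on these lists, are after TMM scaling. Apoe, the apolipoprotein of lipid-loaded macrophages and a ligand of TREM2, had 360 and 409 CPM in the libraries labelled KO and 212 and 82.4 CPM in those labelled WT (log2 1.32, SE 0.41, unadjusted p = 0.00541, adjusted p = 0.9999, edgeR). Ctss, cathepsin S, had 597 and 586 against 500 and 369 CPM (log2 0.44, SE 0.36). Of 36 lysosomal genes 31 were tested, 22 were above 0 and the median was 0.16; Mitf, one of their regulators, had 559 and 599 against 661 and 655 CPM, and Gla, alpha-galactosidase, had the largest difference, -1.74 (SE 1.37). Of 17 genes of cholesterol and lipoprotein handling 16 were tested and 12 were above 0 (median 0.12), with the scavenger receptor gene Cd36 at 531 and 520 against 506 and 282 CPM. Of 12 genes of TREM2 signalling and its ligands 10 were tested and 4 were above 0 (median -0.07), with Vav3 at -0.34 (SE 0.41). None of these lists had a gene that passed the test in macrophages.

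The partners of single members gave no call either. Of 9 osteopontin receptors 6 were above 0 (median 0.08), with the integrin gene Itgb5 at 284 and 227 CPM in the libraries labelled KO and 123 and 139 CPM in those labelled WT (log2 0.96, SE 0.36, adjusted p = 0.9999, edgeR) and Cd44 at 0.01. Of 4 beta-2 integrins, relatives and partners of CD11c, 2 were tested, Itgal at 0.75 (SE 0.51) and the shared chain Itgb2 at -0.59 (SE 0.46). Of 8 tetraspanins 7 were tested and 5 were above 0 (median 0.18), with Cd63 at 232 and 129 against 110 and 60.7 CPM (log2 0.96, SE 0.44). Of 5 galectins and their partners 4 were tested and 3 were above 0 (median 0.26), with the glycosyltransferase gene Mgat5 at 0.41 (SE 0.35). Of 6 other fatty acid-binding proteins only Fabp4, the adipocyte form, was tested, at 0.66 (SE 0.44). Of 14 perivascular or resident macrophage genes 12 were tested and 7 were above 0 (median 0.29), with the lectin gene Cd209f at 3.61 (SE 0.95, adjusted p = 0.9999, edgeR) and F13a1 at -0.41 (SE 0.45). Of 7 monocyte genes 4 were tested and 1 was above 0 (median -0.71), with the fibronectin gene Fn1 at 37.9 and 240 CPM in the libraries labelled KO and 767 and 278 CPM in those labelled WT (log2 -1.78, SE 0.58, adjusted p = 0.9999, edgeR).

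In adipocytes 1 gene of these lists passed, 1 of the 21 tested of its list, where 0.520% of all 15379 genes tested did. Emp1, a membrane protein of the further lipid-associated macrophage genes, rose to 26.8 and 38.0 CPM in the libraries labelled KO, against 5.89 and 11.5 CPM in those labelled WT (log2 2.05, SE 0.48, adjusted p = 0.0331, edgeR). It is expressed well beyond macrophages. In all, 17 of the 21 tested genes of that list were above 0 in adipocytes (median 0.29). Over all genes tested, 51.3% were above 0 and the median was 0.01. Of that list, Apoe had 35.7 and 68.5 against 20.8 and 30.1 CPM (log2 1.10, SE 0.39, adjusted p = 0.408, edgeR). Apoe is named here although the rule on this list names Emp1 only. Ctsl had a larger difference (log2 1.19, SE 0.49, adjusted p = 0.669, edgeR), and Lpl and Fabp4 had higher levels. Over all nuclei 20 of 24 were above 0 (median 0.40) and 27 of 36 lysosomal genes were (median 0.19), against 53% above 0 and a median of 0.02 over all genes tested, and 0 of either list passed.

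The genes whose level over the 44 class-by-library sums was most like that of each member were sought among 11140 genes, by Pearson correlation of log2(CPM + 1). The sums share libraries and depth, so the values describe these sums only. For Spp1 they were the caseins Csn1s1 (0.77), Csn2 (0.75) and Csn3 (0.69). For Ctsb they were Grn (0.82), the gene of the lysosomal protein progranulin, Rab7 (0.76), of late endosomes, and Lyz2 (0.75), macrophage lysozyme. For Itgax they included the myeloid gene Aif1 (0.84) and CT009518.1 (0.83). For Gpnmb they were the ABC transporter gene Abca9 (0.85), Cnrip1 (0.81) and the lysophosphatidic acid receptor Lpar1 (0.77). For Cd9 they included Stx3 (0.86) and Plxnb2 (0.83), and for Lipa they were Slc31a2, Xbp1 and Plin2 (0.75 to 0.77). For Lgals3 they were Dhrs3, Tmem170b and Ahnak (0.67 to 0.71), and for Trem2, Fabp5 and Ctsd, which rest on few UMIs, the closest were Cysltr1 (0.74), Qdpr (0.61) and Fignl1 (0.61). No member was the closest gene of another: the highest correlation between 2 members was 0.61, for Lipa and Lgals3.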

How the data were processed

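Nuclei were isolated with a Singleron kit, per the labels' protocols. The deposited values are raw UMI counts per gene and barcode; the submitters' processing notes name GRCm38 (mm10) and Seurat 4.3.0, and name no aligner. Nuclei with at least 500 UMIs, 300 genes and at most 10% mitochondrial UMIs were kept. They were clustered in scanpy 1.11.5 without the 10 genes (2000 variable genes, 30 components, Leiden resolution 1, the best of 10 seeds by modularity), and a cluster was named when at least 3 markers of 1 type were among its 100 leading genes. Scrublet called 0 to 3 doublets per library, so doublets remain. Counts were summed per library and class and tested with edgeR 4.0.16 (quasi-likelihood, TMM, filterByExpr, Benjamini-Hochberg over all genes of a class, threshold 0.05), checked on simulated data; DESeq2 1.42.0 was an alternative. From each list the genes named are those that passed, and otherwise the one with the largest difference and the one with the highest level. In adipocytes Apoe is named beside Emp1 of the same list. Exact intervals are at 95% and the limit for a count of 0 is 3 counts; both cover counting error only. The members and lists were chosen with earlier results of these data known. Some genes that the rule on likeness would name are not reported here.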

Additional observations from a re-analysis of the deposited data

How the results depend on the processing

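Of 341 alternative values for the 24 differences of member genes in all, macrophage and adipocyte nuclei, 294 kept direction and side of the threshold, 8 kept direction and passed it and 39 changed sign. In macrophages Spp1 (0.88 to 10.92), Gpnmb (1.27 to 3.399), Ctsb (0.69 to 1.26) and Lipa (0.49 to 0.96) stayed above 0 in every alternative run. Where 1 library of a label was left, it was assumed to vary like the other label, and the 10.92 rests on a library with 0 Spp1 UMIs and is no bound. The cause of each change below was not tested.

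Genes called in all nuclei, 29, were 14 with DESeq2, 3 with at least 1000 UMIs and 500 genes, and 5 to 18 with a library left out, when 0 to 1 member genes were called (Spp1 without labelled WT 1, log2 6.89). The 1 gene called in macrophages became 5 with no filter on low counts, 0 when macrophages were taken by marker gate and 3 to 14 with a library left out. The member genes called there became 1 with no filter (Spp1) and 0 to 2 with a library left out. The 80 genes called in adipocytes became 46 to 240, and 0 to 1 member genes were called (Spp1 without labelled KO 1). The member genes called in other classes, 1, were 0 with DESeq2, no filter, at least 1000 UMIs or at most 5% mitochondrial UMIs, and 0 to 2 with a library left out. The Cd9 difference in vascular endothelial nuclei ranged from -3.24 to -1.35. It missed the threshold with DESeq2 (-1.92), no filter (-1.72), at least 1000 UMIs (-1.98), at most 5% mitochondrial UMIs (-1.83) and without labelled KO 1, WT 1 or WT 2. The macrophage share difference of -0.012 points was 0.0359 at Leiden resolution 0.5, 0.502 with at least 1000 UMIs, 0.300 with at most 5% mitochondrial UMIs, and -1.49 to 1.47 with a library left out. By share of macrophage nuclei with a UMI, Cd9 and Itgax changed from below to above 0 under both other depths. The values were 1.97 and 2.87 points for Cd9 and 1.03 and 1.85 points for Itgax. Spp1 became -0.09 points with all UMIs counted, and Ctsd -0.16 points at 1000 UMIs.

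The numbers 1 and 2 are not stated to pair libraries. Deviations of same-numbered libraries correlated at -0.65 in all nuclei, -0.40 in macrophages and -0.30 in adipocytes. With the replicate number as a block, 4 genes were called in all nuclei, Spp1 there became 1.38 and Fabp5 0.0656, and Cd9 in vascular nuclei was -1.999. With the crossed block, 39 genes were called in all nuclei, 21 in macrophages and 347 in adipocytes, with 2 member genes called in adipocytes and 2 in other classes, and Spp1 became 0.52 and Fabp5 0.012 in all nuclei and Fabp5 -0.0106 in adipocytes.

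Other sign changes in all nuclei were Cd9 0.0347 at 5% mitochondrial UMIs, Fabp5 0.0066 at 1000 UMIs and 0.0694 without cluster 0, and Lipa 0.10 without the casein cluster. In macrophages they were Cd9 -0.12 in cluster 14 alone, Lgals3 -0.58 in cluster 11 alone, and Itgax 0.0763 with no filter, 0.13 at 1000 UMIs, 0.0044 without the highest doublet scores and 0.43 by marker gate. In adipocytes Fabp5 was -0.0295 without the highest doublet scores and -0.026 at Leiden resolution 0.5. With a library left out, all-nuclei differences ranged from -2.93 to 6.89 for Spp1, -0.49 to 0.21 for Cd9, -0.66 to 0.18 for Lgals3, -0.47 to 0.61 for Fabp5, -1.28 to 0.97 for Lipa, -0.0087 to 1.40 for Ctsb, -0.59 to 0.15 for Ctsd and -0.10 to 0.49 for Itgax. In macrophages they ranged from -0.25 to 0.74 for Cd9, -0.0624 to 0.69 for Lgals3 and -0.34 to 0.28 for Itgax. In adipocytes they ranged from -2.82 to 2.35 for Spp1, -0.54 to 0.45 for Gpnmb, -1.10 to 0.30 for Cd9, -0.25 to 0.56 for Fabp5 and -0.51 to 0.16 for Lipa. The settings for the casein cluster, cluster 0, single macrophage clusters, doublet scores, the crossed block and the other classes were chosen after seeing the data. With 2 libraries per label and few UMIs of Trem2, Fabp5 and Ctsd, differences in these genes were not detectable at this depth.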
